A study of Sus scrofa with 16 samples.

Results

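The regions described here were stretches of heart DNA with methylation peaks of Yorkshire lowland pigs (YL) at whose test positions no other group had a peak. They were chosen from the peak lists themselves. Chromosomes 1 to 18 were cut into windows of 500 bp, and a window was kept as YL-private when base 250 of the window lay under 3 or 4 YL peaks and under 0 peaks of each of the other groups. This left 1604 windows, or 0.259% of the 620135 windows with a peak in any list. Adjoining windows were joined to 1180 regions with a summed length of 802 kb, and 3636 of the 305654 YL peaks on these chromosomes covered them. As the counts of peaks chose the regions, the values below are given as descriptions and without a test.

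Heart DNA was taken at 6 months from 16 castrated boars. Tibetan and Yorkshire pigs kept in the highland (groups TH and YH) or in the lowland (groups TL and YL) gave 4 animals each. Every animal had spent its life from conception at its place, Linzhi for the highland and Beijing for the lowland. TH and YL were at home at their elevation, whereas YH and TL came from stock brought there some years before and bred on. Pigs at an elevation were fed alike, so that elevation, site and feed cannot be told apart. Peaks were deposited as 1 list for each group, with no name of an animal on any peak. No base at the middle of a window lay under more than 4 peaks of its list, and each peak over a window was therefore read as coming from a different animal. Which animal a peak came from is not known, so that values named in the same place for different regions need not belong to the same pig.

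Methyl groups on cytosine are a lasting mark on DNA that is copied at cell division and differs between cell types. Methylation of promoters and other control regions goes together with closed chromatin and low transcription, while methylation within gene bodies is common in transcribed genes. In methylated DNA immunoprecipitation sequencing (MeDIP-seq), an antibody against 5-methylcytosine pulls down methylated fragments, so that a peak marks a place with many methylated CpGs. Heart tissue holds cardiomyocytes, fibroblasts, endothelial cells and others, and more cells with methylation and more methylation per cell cannot be told apart in these libraries.

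Of the YL-private windows, 1465 lay under 3 YL peaks and 139 under 4. The latter were 0.0224% of the windows with a peak in any list. Windows with 4 peaks thus made up 8.67% of the private windows (95% confidence interval by Wilson's method, 7.39–10.1%), against 43.1% of all 114708 windows with 3 or 4 YL peaks. The private windows were 1.40% of the latter (1.33–1.47%). Such intervals reflect the number of windows or regions counted and not the spread between animals. At the limit of the rule, 10070 windows had 2 YL peaks and 0 peaks elsewhere, and 66615 had 1 YL peak and 0 elsewhere. A further 3701 windows had 3 or 4 YL peaks and a single peak elsewhere, which was a YH peak in 1855 windows, a TH peak in 1143 and a TL peak in 703. The peaks inside and outside the limit had similar values. The median number of tags (reads counted in a peak) was 32.0 over private windows with 3 peaks, 31.0 over windows with 2 YL peaks and 0 others, and 33.0 over windows with 3 or 4 YL peaks and 1 other.

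The same rule was applied to each of the other lists to show how many private windows they held. With TH as the private list there were 912 windows (0.147% of the windows with a peak in any list), with YH 631 (0.102%) and with TL 454 (0.0732%). YL thus had 1.76 times as many as the next list. The lists differed in depth. The 4 libraries of a group together had 68.3 M uniquely mapped reads in YL (M, 1000000 reads), 64.6 M in YH, 61.5 M in TH and 56.0 M in TL, and YL also had the most peaks. Per M of these reads, there were 23.5 private windows in YL, 14.8 in TH, 9.77 in YH and 8.10 in TL. With the lists cut to the same number of peaks by tags, 1190 windows were private to YL, 903 to TH, 730 to TL and 627 to YH. Of the 1604 windows, 1168 were YL-private also in these cut lists. As a share of the windows with 3 or 4 peaks in the list, the private windows made up 1.40% in YL and 1.19% in TH (1.11–1.26%), 0.658% in YH and 0.649% in TL.

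**Figure D1:**
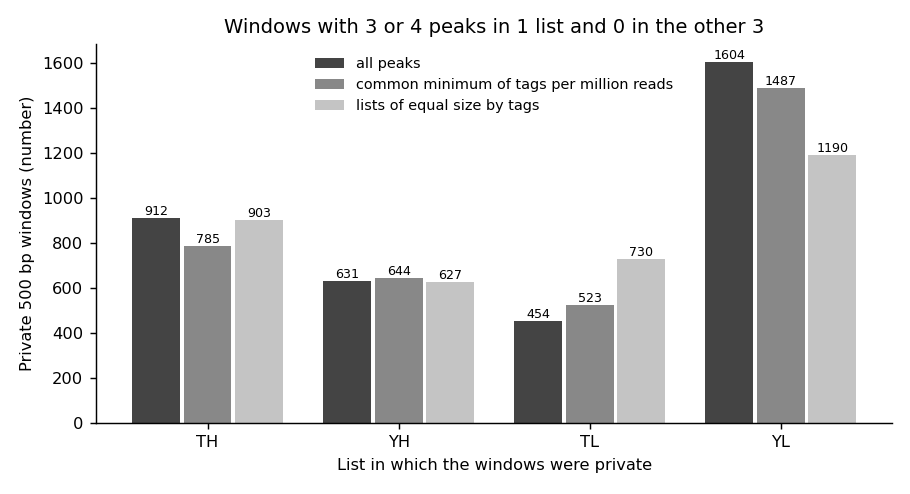
Number of 500 bp windows on chromosomes 1 to 18 with 3 or 4 peaks in the list named on the x axis and 0 in the other 3, with all peaks (dark bars), with a common minimum of tags per M reads (middle bars) and with lists of equal size (light bars). YL was highest in each setting, at 1604, 1487 and 1190 windows.

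Windows with 4 peaks showed a wider gap, with 139 in YL, 42 in YH (0.00677% of the windows with a peak in any list), 30 in TH (0.00484%) and 22 in TL (0.00355%). In TH, only 26.4% of all windows with 3 or 4 peaks had 4, against 42.7% to 47.2% in the other lists. The part of depth and of the calling of peaks in these counts was not tested beyond the settings given here.

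Most windows with 3 or 4 YL peaks were shared with each other group. Of the 114708, 87103 (75.9%) had at least 1 peak in TH, YH and TL alike. The other group that most often shared a window without the remaining groups was YH, the other Yorkshire group, with 4182 windows, followed by TH with 1941 and TL with 966. Among the 5786 windows with 3 or 4 YL peaks and none in either Tibetan group, 27.7% (26.6–28.9%) also had none in YH and were YL-private. Among the 3545 with none in YH and TL, 45.2% (43.6–46.9%) also had none in TH, and among the 2570 with none in TH and YH, 62.4% (60.5–64.3%) had none in TL. The absence of YH peaks was thus the condition that removed the most windows.

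**Figure D2:**
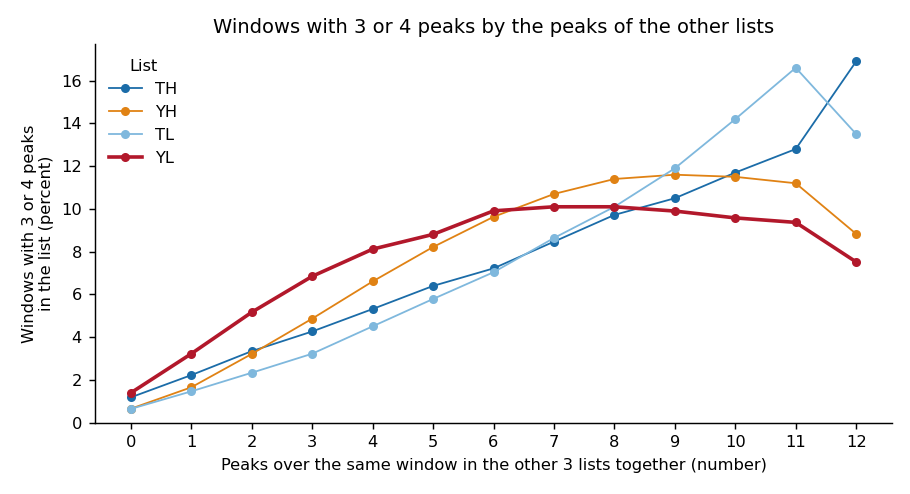
Share of the windows with 3 or 4 peaks in a list (y axis, percent) by the number of peaks that the other 3 lists together had over the same window (x axis, 0 to 12), with a line per list. The YL-private windows are the YL point at 0 (1.40%), and the share rose from there to a broad top between 6 and 9 peaks.

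The private regions fell into 2 kinds by the extent of the peaks that covered them. In 482 regions (40.8%, 38.1–43.7%), no covering YL peak overlapped a peak of another group at any base, and these peaks stood alone. In the other 698 regions (59.2%), at least 1 covering YL peak also overlapped a peak of TH, YH or TL away from base 250 of the private windows. In 576 of these 698 (82.5%, 79.5–85.2%), a peak of another group reached into the private region itself without covering base 250 of a private window. The covering peaks overlapped a TH peak in 516 regions, a YH peak in 505 and a TL peak in 438, and peaks of each of these groups in 273. Judged by an overlap of at least 50% of the YL peak, the share was 53.8%. The same share of overlapping regions was 59.6% (55.1–63.9%) among YH-private regions, 42.6% (38.8–46.4%) among TH-private and 36.7% (31.9–41.9%) among TL-private regions. A longer peak has more bases at which it can overlap another, and the part of peak length in these shares was not tested.

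Regions of both kinds were mostly short. A single window of 500 bp made up 862 of the 1180 regions, 244 regions had 2 windows, 52 had 3, 16 had 4, 4 had 5 and 2 had 7. Among the regions whose peaks stood alone, 52.5% were a single window, against 87.2% of those whose peaks overlapped another group. A window with 4 peaks was found in 43 of the former (8.92%) and 59 of the latter (8.45%).

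The summit of a peak is the base with the most reads. As a peak of another group cuts a private region short, the split into the 2 kinds in large part fixes where summits lie, and the shares are given as a description. Every summit of the covering peaks lay inside the private region in 440 of the 482 regions that stood alone (91.3%, 88.4–93.5%). In the 698 others this held for 37 (5.30%), and in 531 (76.1%, 72.8–79.1%) no summit lay inside. The latter were flanks of peaks whose summits lay elsewhere. Over all 698 regions, the covering YL peaks had a median length of 1482 bp per region (quartiles 1086 and 2126 bp). The peaks of other groups that these YL peaks overlapped had a median length of 1039 bp (813 and 1397 bp). The rule itself bears on this difference, as it keeps only windows whose test position YL peaks reach and the other peaks do not. In the paper, YL also had the highest median peak length of all groups. Both lengths are therefore given as a description, and the part of the rule was not tested. Where peaks stood alone, the summits of the 3 or 4 animals lay close together, with a median of 83.0 bp between the outermost (quartiles 41.0 and 174 bp). In 59.3% of these regions (54.9–63.6%) the summits were within 100 bp of each other. The median was 109 bp (55.0 and 350 bp) in the 47586 regions with 3 or 4 YL peaks that other groups shared and that were covered by as many peaks, where 47.1% had their summits within 100 bp. In the 698 private regions whose peaks overlapped another group the summits lay farther apart than in either, with a median of 136 bp (58.0 and 693 bp). There 42.8% (39.2–46.5%) had their summits within 100 bp. Longer peaks leave more room between summits, and median peak length rose in the same order. It was 912 bp where peaks stood alone, 1167 bp where shared and 1474 bp where private peaks overlapped another group. The part of peak length in these spans was not tested.

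**Figure D3:**
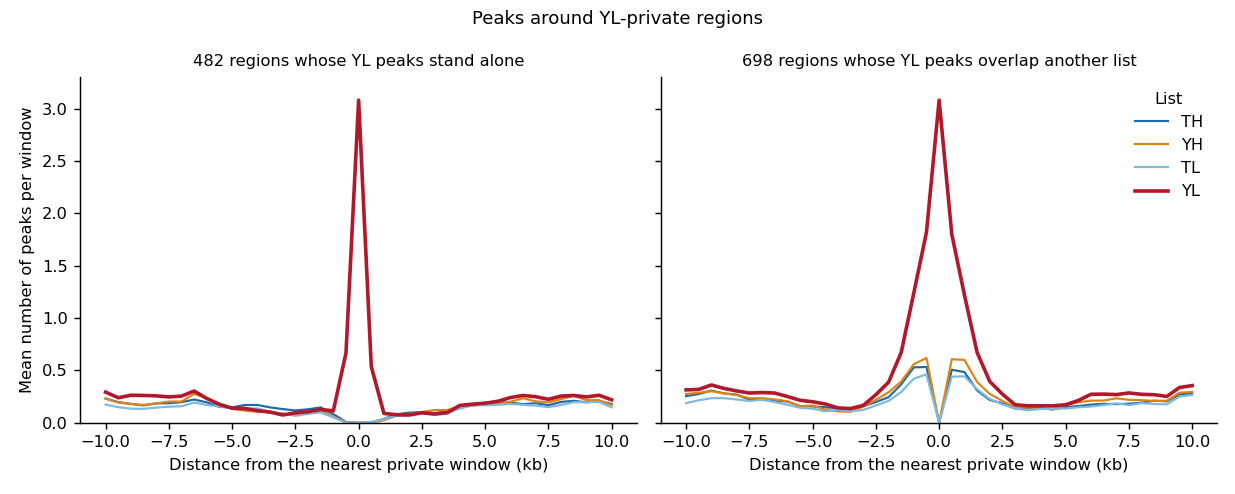
Mean number of peaks per 500 bp window (y axis) by distance from the nearest private window to the left or right (x axis, kb, with the private windows at 0), with a line per list, for the 482 regions whose YL peaks stood alone (left) and the 698 whose YL peaks overlapped another list (right). The rule sets the values at 0, with 3.08 YL peaks and 0 others in both panels. At 1 kb, the other lists were at 0.0498 to 0.0830 peaks on the left and 0.0249 to 0.0373 on the right in the left panel, and at 0.421 to 0.559 and 0.444 to 0.600 in the right panel.

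Around regions that stood alone, the number of YL peaks fell within a short distance to that of the other lists. At 5 kb to the left there were 0.139 YL, 0.133 YH, 0.139 TL and 0.147 TH peaks per window, and at 5 kb to the right 0.187, 0.185, 0.168 and 0.191. At 10 kb YL was highest on both sides, with 0.293 YL, 0.230 YH, 0.174 TL and 0.232 TH peaks to the left and 0.220, 0.170, 0.147 and 0.180 to the right. The means over chromosomes 1 to 18 were 0.158 in YL, 0.135 in YH, 0.112 in TL and 0.127 in TH, so that YL was highest there as well. The nearest peak of any other group was at a median distance of 2836 bp from these regions (quartiles 1355 and 5004 bp). It was more than 500 bp away in 444 of the 482 regions, more than 2000 bp in 304, more than 5000 bp in 121 and more than 10000 bp in 34, and at most 43732 bp away. By group, the median distance was 4384 bp to TH, 4608 bp to YH and 4705 bp to TL peaks.

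Peaks that stood alone were small. The 1490 YL peaks over these regions had a median of 23.0 tags (quartiles 17.2 and 34), a length of 912 bp and a fold enrichment over the local background of 7.49. Of them, 40.4% (37.9–42.9%) had at most 20 tags, the lower quartile of the YL list, against 26.1% of all YL peaks on these chromosomes. The 2146 peaks over the other private regions had more tags (median 43.0, quartiles 27.0 and 71.0) and a greater length (1474 bp), with a lower fold enrichment (6.43). As longer peaks have more bases at which they can overlap, the split itself bears on these lengths and tags. For comparison, the 166704 YL peaks over windows with 3 or 4 YL peaks that other groups shared had medians of 35.0 tags, 1167 bp and 7.70. Where peaks stood alone, the covering peak of a region with the most tags had a median of 1.42 times those of the lowest. Elsewhere this ratio was 1.45. In 1075 of the 1180 regions only 3 YL peaks covered the region, so an animal without a peak is left out of the ratio. Tags were not scaled to the depth of a library, and the ratio does not measure agreement between animals. A count of 0 peaks in a group means that the peak caller listed none there, and not that methylation was absent.

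**Figure D4:**
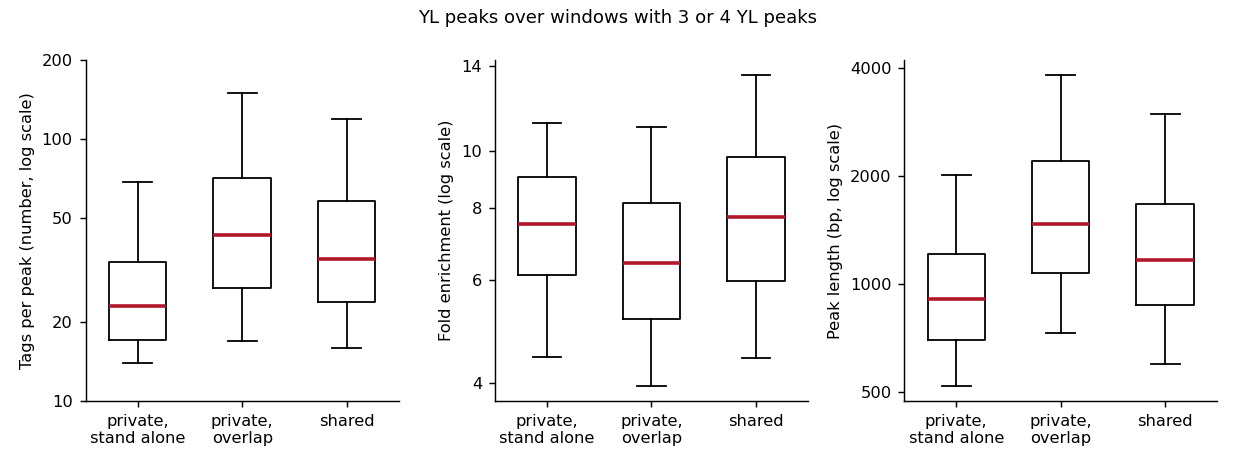
Tags, fold enrichment and length (y axes, log scales) of the YL peaks over private regions that stood alone (1490 peaks), over private regions that overlapped another list (2146) and over windows with 3 or 4 YL peaks that other lists shared (166704). Boxes give the quartiles and the median, and whiskers the 5th and 95th percentiles. The medians of tags were 23.0, 43.0 and 35.0.

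The private regions were spread over each of the 18 chromosomes. The density was 0.655 windows per Mb over all, with the highest value on chromosome 18 (1.01 per Mb, 62 windows), followed by chromosomes 9 (0.879, 135 windows) and 12 (0.865, 55 windows). Chromosome 16 (0.403, 35 windows) and chromosome 1 (0.446, 140 windows) were the lowest. The order differed when private windows were set against the YL peaks of a chromosome. On chromosome 15, with 31.4 windows with 3 or 4 YL peaks per Mb, 2.20% of these 4959 windows were private, the highest share, and on chromosome 10, with 72.1 such windows per Mb, 0.912%, the lowest. In the outer 10% at either end of the chromosomes lay 23.8% (21.5–26.3%) of the private regions and 26.9% (26.5–27.3%) of the 48293 shared YL regions. Only 19.3% (16.0–23.1%) of the regions that stood alone were there, against 26.9% (23.8–30.3%) of those that overlapped another group.

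The surroundings of private regions held peaks of the other groups. In the 50 kb on each side, leaving out the nearest 2.5 kb, a median of 15.8% of the windows had a TH, YH or TL peak (quartiles 10.5% and 21.6%), against 15.3% (10% and 21.6%) around shared YL regions and 11.1% over all windows. Private regions were mostly single, with a median of 564 kb to the next private region, and 28 of the 1180 had another within 10 kb. Of 2457 bins of 1 Mb, 863 held a private region, 623 of them just 1. The most were 6 regions with 10 windows each in the bins from 43000001 to 44000000 on chromosome 8 and from 54000001 to 55000000 on chromosome 18, followed by 5 regions with 7 windows on chromosome 6 from 40000001 to 41000000. All positions are those of Sscrofa10.2. In the chromosome 8 bin 3 of the 6 regions stood alone, whereas in each of the chromosome 18 and chromosome 6 bins only 1 did.

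The 2 regions of 7 windows (3500 bp) both stood alone. That on chromosome 5 from 84247001 to 84250500 was covered by 3 YL peaks of 223, 205 and 97 tags, with fold enrichments of 4.37, 4.03 and 3.05 and summits within 335 bp of each other. The nearest TL peak was 2485 bp away, the nearest TH peak 5309 bp and the nearest YH peak 5364 bp. The region on chromosome 14 from 147647501 to 147651000 lay under 3 YL peaks of 171, 142 and 158 tags, with fold enrichments of 4.04, 3.86 and 4.83. The 3 peaks were 3604, 3450 and 3632 bp long, and their summits were spread over 2344 bp. TH peaks began 1088 bp from this region, TL peaks 2751 bp and YH peaks 5657 bp. Their fold enrichments lay below the median of the peaks that stood alone, and their tags above it.

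A region of 5 windows on chromosome 15 from 152975501 to 152978000 also stood alone, under 3 YL peaks of 127, 108 and 81 tags. The other groups had no peak within 2502 bp of it. The YL peaks over the 3 further regions of 5 windows overlapped peaks of other groups. On chromosome 9 from 11344501 to 11347000, 4 YL peaks of 147, 144, 111 and 90 tags covered 4 of the 5 windows together. Their right part overlapped 2 TH, 1 YH and 2 TL peaks, 48 bp or more from the region. The summits of the YL peaks of 147 and 144 tags also lay there, to the right of the region. On chromosome 5 from 2753501 to 2756000, 3 YL peaks of 132, 135 and 109 tags with fold enrichments between 6.46 and 7.94 covered the region with no summit inside and with their summits within 115 bp of each other. They overlapped 3 TH, 2 YH and 1 TL peaks, and peaks of all these groups reached into the region. On chromosome 1 from 9519501 to 9522000, 3 YL peaks of 137, 135 and 73 tags overlapped 1 TH and 2 TL peaks, the nearest of them 1249 bp away, and the nearest YH peak was 4740 bp away.

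**Figure D5:**
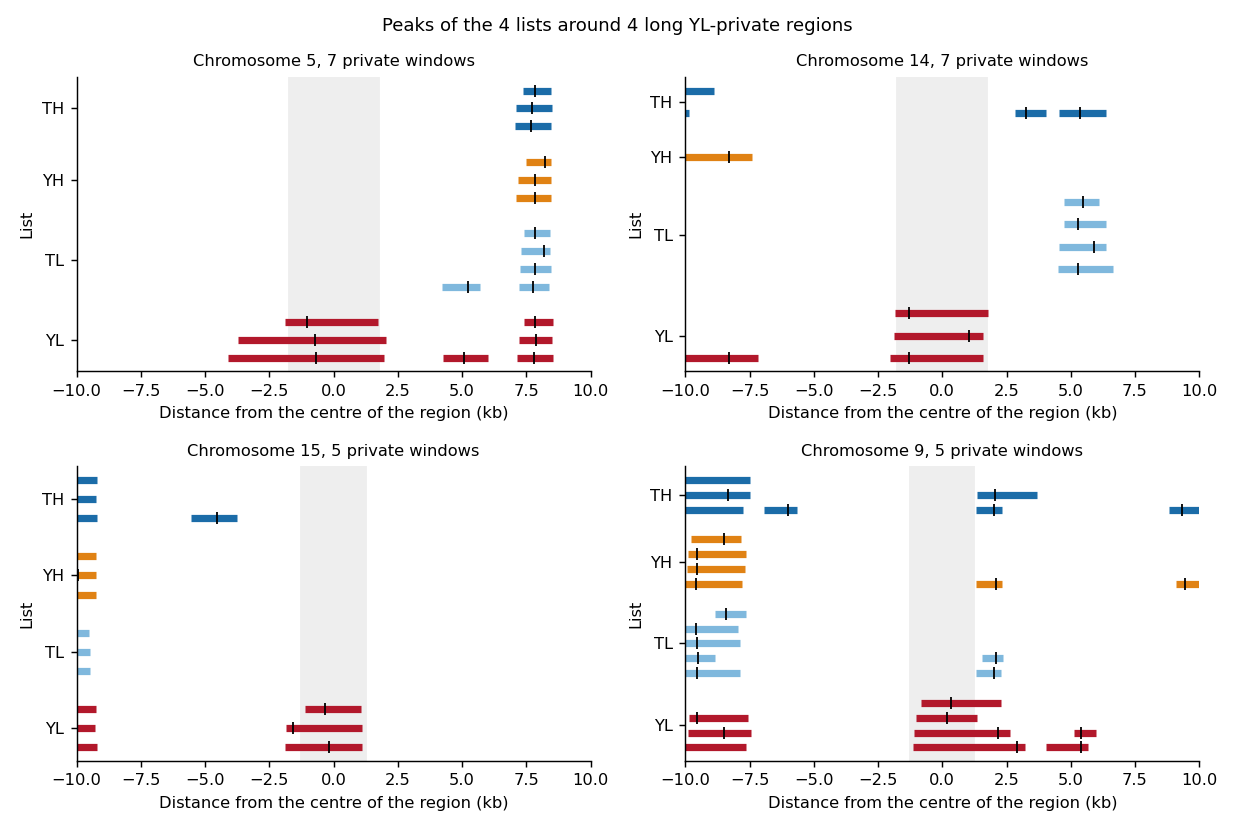
Peaks of the 4 lists (bars, coloured by list, with the summit as a black tick) by distance from the centre of 4 long YL-private regions (x axis, kb). The grey band is the private region. On chromosomes 5, 14 and 15 the YL peaks over the band stand alone, and on chromosome 9 the 4 YL peaks run on into a place where TH, YH and TL have peaks.

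The longest regions with all 4 YL animals throughout were on chromosomes 2 and 9. On chromosome 2 from 52483001 to 52485000, 4 YL peaks of 140, 68, 76 and 70 tags and fold enrichments between 4.52 and 6.12 covered all 4 windows. The nearest TL peak was 4030 bp, the nearest TH peak 4139 bp and the nearest YH peak 14821 bp away. On chromosome 9 from 47651001 to 47653000, the 4 YL peaks had 65, 67, 64 and 95 tags and their summits lay within 54 bp. A TH peak came as near as 242 bp, while the nearest YH peak was 6364 bp and the nearest TL peak 7530 bp away. A further region of 4 windows on chromosome 2, from 65675501 to 65677500, was covered by peaks of 44, 44, 35 and 16 tags, with all 4 over a single window. That on chromosome 12 from 60272501 to 60274500 lay under 3 YL peaks of 157, 193 and 49 tags that overlapped 3 TH, 4 YH and 2 TL peaks.

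The 5 regions with the highest enrichment in their weakest peak, among those with a window under 4 YL peaks, were all single windows. No YL peak on these chromosomes had fewer than 12 tags, and some of the peaks named here were little above that floor. The highest value of the weakest peak was 9.98-fold, on chromosome 13 from 126464001 to 126464500, where 4 YL peaks of 28, 31, 37 and 30 tags overlapped 3 TH, 2 YH and 3 TL peaks, and peaks of each of these groups reached into the window without covering its base 250. No YL summit lay inside this window. Of the next, the windows on chromosome 6 from 152824501 to 152825000 and on chromosome 7 from 14873501 to 14874000 stood alone. The former had YL peaks of 25, 15, 16 and 19 tags, 9.67-fold to 11.62-fold enriched, with summits within 29 bp, and the nearest other peak was a TL peak at 783 bp. The latter had YL peaks of 21, 24, 18 and 16 tags, 9.67-fold to 14.61-fold enriched, with summits within 30 bp, and no other peak within 4294 bp. The windows on chromosome 3 from 84812001 to 84812500 and on chromosome 6 from 92375501 to 92376000 also had no YL summit inside.

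The 5 regions farthest from any other group's peak, among those with a window under 4 YL peaks, had covering peaks of 13 to 44 tags. The lowest of these were close to the floor of 12 tags in the YL list. The farthest was a window on chromosome 18 from 40844501 to 40845000, with YL peaks of 17, 16, 18 and 14 tags and no peak within 13518 bp, where the nearest was of YH. On chromosome 13 from 34761501 to 34762500, YL peaks of 25, 22, 24 and 19 tags lay at similar distances from the peaks of each other group, 8609 bp to TL, 8629 bp to TH and 8639 bp to YH. On chromosome 10 from 12666001 to 12667000, the 4 YL peaks had 37, 44, 26 and 32 tags and the nearest other peak was 7408 bp away. The window on chromosome 10 from 68984501 to 68985000 had YL peaks of 25, 20, 17 and 13 tags, with a YH peak at 6864 bp, whereas the nearest TH and TL peaks were 39706 and 39953 bp away. That on chromosome 11 from 56999501 to 57000000 had YL peaks of 24, 17, 26 and 28 tags with summits within 26 bp of each other, and no other peak within 5557 bp. In these 5 regions every YL summit lay inside the region.

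Genes could be named only where a region lay between windows that the used part of the study's list of windows places in introns of the same gene. The list was used only in part, and the lack of a private window paired with a gene in that part says nothing of the rest. The regions found in this way were all under 3 YL peaks, and those of 4 genes are given here, with a region of doubtful annotation. In SMYD3, a lysine methyltransferase gene, the region on chromosome 10 from 21007501 to 21009500 had 4 windows and stood alone, under YL peaks of 86, 112 and 86 tags, with summits within 158 bp of each other, with a TH peak at 988 bp and the nearest YH peak at 23923 bp. In UBE2E2 (listed as LOC780417), which encodes a ubiquitin-conjugating enzyme, a window on chromosome 13 from 11458001 to 11458500 also stood alone, under small YL peaks of 18, 22 and 13 tags, 5048 bp or more from other peaks.

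PITPNC1, which encodes a phosphatidylinositol transfer protein, had 2 private regions on chromosome 12. In that from 14222001 to 14222500, YL peaks of 39, 35 and 42 tags overlapped 2 TH, 1 YH and 2 TL peaks, and in that from 14302501 to 14304000, YL peaks of 98, 86 and 71 tags overlapped 2 TH peaks, with the nearest YH and TL peaks at 6984 and 6852 bp. Neither held a summit. In MRC1, the gene of the mannose receptor of macrophages, the window on chromosome 10 from 48869501 to 48870000 was the edge of YL peaks of 43, 35 and 43 tags that overlapped 2 TH, 4 YH and 2 TL peaks. The windows listed for LEP, the leptin gene, were spread over 540500 bp of chromosome 1, far more than the gene is known to span, so the region between them, from 293778001 to 293778500 under YL peaks of 50, 46 and 51 tags, is given by its position only.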

How the data were processed

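MeDIP-seq was done on heart DNA of 16 pigs. Reads were trimmed (FASTX), mapped to Sscrofa10.2 (Bowtie) and used for peak calling (MACS) by the authors. The deposited tags are counts per peak without normalization, and the deposited fold enrichment is a ratio to the caller's local background. Starts, ends and summits are in bp. Peak ends were read in all lists from the field that joins start and end, since 100907 TH rows have no other end, and each length equalled end minus start plus 1.

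The windows, joined regions, covering peaks, overlaps (at least 1 bp) and distances were computed with pandas 2.3.3 and NumPy 2.4.6 in Python 3.11.15, intervals with SciPy 1.17.1 and plots with Matplotlib 3.10.9. The count was tested on simulated lists of 20000 windows, in which it found all 200 planted windows and 0 others. Groups came from the sample titles. Uniquely mapped reads per library came from the study's table of reads and were used for depth only. Alternatives were other numbers of peaks, overlaps, distances, depth settings, units and grids. Intervals are 95% Wilson intervals and cover counting error only, and the spread between animals is unknown for each value. The regions and the lists compared were chosen with earlier results of these data known. Named regions were the 10 with the most windows (ties by more windows with 4 peaks, then by summed tags), the 5 with the highest lowest fold enrichment and the 5 farthest from other lists (both among regions with a window with 4 peaks), the 3 bins of 1 Mb with the most regions, and windows that the study's list of windows pairs with a gene, to which regions between 2 listed windows of a gene were added after seeing the data. Gene symbols were matched to RefSeq names. CpG content, sequences, gene lists and other genes were not analysed here, as no genome of Sscrofa10.2 was used. A region in 1 further gene is not reported here.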

Additional observations from a re-analysis of the deposited data

Results flagged for a closer look

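Sequences outside chromosomes 1 to 18 also held YL-private windows, and more of them than windows private to any other list. On chromosome X there were 31 YL-private windows, against 17 in TH, 16 in YH and 3 in TL, which were 1.16%, 1.29%, 0.693% and 0.375% of each list's windows with 3 or 4 peaks there, so that by share TH was higher than YL. On unplaced scaffolds there were 73 YL-private windows, against 26 in TH, 25 in YH and 19 in TL, or 1.01% of the YL windows with 3 or 4 peaks against 0.384% to 0.516% in the other lists. The greater depth of YL moves with these counts, and its part was not tested.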

How the results depend on the processing

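The number of YL-private windows was 1604. It was 139 with 4 YL peaks required and 11674 with 2 or more, 828 with no other peak within 500 bp of the window and 535 with none within 2000 bp. Other settings kept the number within 1.5 times of 1604, from 1190 to 2099 windows. These were an overlap of 1 bp in place of base 250, a common minimum of 0.928 tags per M reads and lists of equal size. Adding chromosome X or moving the grid by 250 bp (chosen after seeing the data) also left it in this range. Counted as joined regions in place of windows, there were 1180. YL had the most private windows in each of these settings. The ratios for joined regions, regions that stood alone, the share of windows and the moved grid were also chosen after seeing the data. Its ratio to the next list was 1.76, 3.31 with 4 peaks, and between 1.18 and 1.89 otherwise, lowest as a share of windows with 3 or 4 peaks and 1.30 for regions that stood alone. The share of regions whose peaks overlapped another list was 59.2%, 53.8% with an overlap of 50% of the YL peak and 57.8% for regions with a window with 4 peaks. As means in place of medians, the covering peaks had 46.1 tags, 7.17-fold enrichment and 1480 bp. Highest over lowest density by chromosome was 2.51, and 2.26 or 2.41 in other units. No paired analysis was possible because the lists carry no names of animals and no test was made, and for the same reason no animal could be left out in turn.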
